A study of Mus musculus with 12 samples.

Results

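Whether the liver's response to FFC, a feed high in fat, fructose and cholesterol, depends on S1pr1 in myeloid cells was read from 1 contrast per gene: the diet effect in knockout liver minus the diet effect in wild-type liver. All 12 libraries of the series entered it, 3 in each of 4 groups, and 16283 of the 43346 genes listed had enough counts to be tested. Of these, 8 genes (0.0491%) passed the test, 4 with a positive (0.0246%) and 4 with a negative value (0.0246%). Knockout mice carried both copies of a loxP-flanked S1pr1 together with 1 copy of the Lyz2-Cre transgene, and wild-type mice were littermates with the same flanked S1pr1 and no Cre. Cre is thus present in every knockout and in no wild-type library, so it cannot be told apart from loss of S1pr1. Each genotype received FFC or standard rodent chow for 24 weeks from 12 weeks of age. Lyz2-Cre acts in macrophages, monocytes and neutrophils, so other liver cells keep their S1pr1. Nothing in the labels ties each library to a mouse of its own, and p-values refer to the spread between these libraries, which may be technical.

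S1pr1 encodes a receptor on the cell surface for the lipid mediator sphingosine 1-phosphate, which guides immune cells between tissue and blood and keeps vessel walls tight. FFC feeding loads hepatocytes with fat, represses their cholesterol synthesis and brings macrophages of blood origin into the liver beside the resident Kupffer cells. A gene whose diet effect differs between genotypes can do so in opposite ways: the genotypes may already stand apart on chow and meet on FFC, or start level and part on FFC. The contrast is the knockout minus wild-type difference on FFC less that on chow, so each value was split into these 2 parts. A gene was placed on the chow side where the chow part made up at least 2/3 of the value, on the FFC side where it made up at most 1/3, and on both sides in between.

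Genes of opposite base composition took part in the contrast, and 4 of the 8 genes past the test are shown by a stretch of their coding sequence, since transcript GC content moved with the chow part of the contrast as described further on. Emc10 has the highest and Clec2h the lowest transcript GC content of the 8, and Marco and Cyp17a1 are the 2 on the FFC side. Each stretch is 120 coding bases of 1 exon in mm10, written 5′ to 3′ on the gene's strand, with G and C in capitals.
Emc10, exon 5, chr7:44492175-44492294, minus strand: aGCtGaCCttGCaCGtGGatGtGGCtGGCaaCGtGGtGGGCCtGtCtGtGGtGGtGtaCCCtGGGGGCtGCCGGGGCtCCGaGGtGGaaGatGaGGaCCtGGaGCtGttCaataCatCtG
Clec2h, exon 3, chr6:128674008-128674127, plus strand: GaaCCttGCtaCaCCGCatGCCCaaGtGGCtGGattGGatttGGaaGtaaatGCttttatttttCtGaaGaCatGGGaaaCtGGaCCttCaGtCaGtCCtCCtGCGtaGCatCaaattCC
Marco, exon 3, chr1:120494093-120494212, minus strand: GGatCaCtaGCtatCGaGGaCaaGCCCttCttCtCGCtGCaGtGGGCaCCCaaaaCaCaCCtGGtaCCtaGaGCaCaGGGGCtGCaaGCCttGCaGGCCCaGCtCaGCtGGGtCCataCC
Cyp17a1, exon 1, chr19:46672635-46672754, minus strand: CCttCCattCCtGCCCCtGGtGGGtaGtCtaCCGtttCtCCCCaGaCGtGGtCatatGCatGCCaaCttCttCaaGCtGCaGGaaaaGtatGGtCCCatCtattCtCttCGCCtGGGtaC
Over the whole coding sequence the GC content was 64.3% for Emc10, 46.5% for Clec2h, 55.7% for Marco and 49.2% for Cyp17a1.

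Total counts were 18873092 to 25855609 in the chow and 25773607 to 31154930 in the FFC libraries. The chow libraries spread more than the FFC libraries, with a biological coefficient of variation of 0.363 in a fit of the chow groups and 0.174 in a fit of the FFC groups. Knockout chow replicate 1 stood apart. It lay at -97.2 on the second principal component of log2 expression, which held 13.9% of the variance and where the other 11 libraries lay between -10.1 and 40.2. All 8 hepatocyte markers were counted in every group, at a summed 68300 to 215000 CPM (counts scaled to library size with edgeR's TMM factors). The neutrophil markers, 2 of 6 of which had enough counts to be tested, summed to 3.36 to 15.4 CPM in knockout chow libraries and to 1.78 to 5.71 CPM in the other groups. S100a9, 1 of these markers, was high in knockout chow replicate 2 alone, at 2.6, 9.7 and 2.4 CPM in replicates 1, 2 and 3. In the text, 3 values of a group follow the order of replicates 2, 3, 4 for both wild-type groups, 1, 2, 3 for knockout chow and 1, 4, 7 for knockout FFC. S1pr1 itself stood at 29.8, 27.3 and 44.4 CPM in wild-type chow, 41.5, 28.2 and 32.9 in knockout chow, 33.7, 39.3 and 29.1 in wild-type FFC and 35.3, 35.7 and 38.9 in knockout FFC libraries. The groups overlapped, and the difference of diet effects was 0.09 on the log2 scale (SE 0.29, edgeR adjusted p = 0.907). Counts over the whole gene in whole liver do not resolve the flanked exon or the cells that delete it, so this value says little of the deletion.

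Set apart by the part of the contrast they came from, the 8 genes past the test gave 5 on the chow side (Emc10, Itga5, Klhl25, N6amt1 and Rfx4), 1 on both sides (Clec2h) and 2 on the FFC side (Marco and Cyp17a1). By share these were 62.5%, 12.5% and 25% of the 8, near the 61.8%, 16.6% and 21.6% of all tested genes. Values of the 8 ran from -2.48 to 2.72 on the log2 scale, and each had an edgeR adjusted p of 0.0467 (quasi-likelihood test, Benjamini-Hochberg adjustment over all tested genes), as 0.0491% of tested genes had under 0.05. In 5 of the 8 the diet effects of the genotypes had opposite signs, against 4994 of all 16283 tested genes. For N6amt1 and Rfx4, 2 of these 5, the wild-type diet effect did not pass its own test (edgeR adjusted p = 0.309 and 0.594). Knockout and wild-type levels did not overlap on chow in 6 of the 8, against 20.6% of all tested genes, and on FFC in 7, against 21.3%. The 2 parts share libraries with the contrast that chose these genes. Their tests, and the counts without overlap or with opposite signs, describe where a difference lies and are not further evidence for it.

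Marco (ENSMUSG00000026390, chr1:120474538-120505024 in mm10) had the lowest p-value. It encodes a scavenger receptor of macrophages that binds bacteria and modified lipoproteins, and in liver it marks Kupffer cells. On chow, wild-type libraries had 8.64, 16.1 and 13.0 CPM and knockout libraries 11.7, 16.1 and 9.08 CPM. On FFC, wild-type libraries had 5.79, 4.64 and 9.01 CPM and knockout libraries 26.1, 48.6 and 50.1 CPM. The genotypes overlapped on chow, and every knockout FFC library lay above all 9 others. The diet effect was -0.96 (SE 0.31, edgeR adjusted p = 0.041) in wild type and 1.76 (SE 0.31, edgeR adjusted p = 0.000775) in knockout liver, on the log2 scale. Their difference was 2.72 (SE 0.43), of which the genotype difference on FFC was 2.68 (SE 0.32, edgeR adjusted p = 0.00218) and that on chow -0.03 (SE 0.31, edgeR adjusted p = 0.963). The difference without knockout chow replicate 1 was 2.68 (edgeR adjusted p = 0.0828), and 8 of the 12 libraries, when left out singly, raised the adjusted p above the threshold. In whole liver, more cells of a type and more RNA per cell cannot be told apart.

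Cyp17a1 (ENSMUSG00000003555, chr19:46667165-46672974 in mm10), the steroid 17-hydroxylase and 17,20-lyase, went the other way on FFC. On chow, wild-type libraries had 4.65, 4.27 and 4.91 CPM and knockout libraries 4.65, 8.92 and 7.57 CPM, against 41.8, 24.4 and 28.4 CPM in wild-type FFC and 4.78, 11.2 and 9.91 CPM in knockout FFC libraries. The 3 wild-type FFC libraries were the high ones, and the other 3 groups overlapped. FFC raised it by 2.77 (SE 0.32, edgeR adjusted p = 3.11e-05) in wild type, whereas the diet effect in knockout liver was 0.29 (SE 0.30, edgeR adjusted p = 0.507). The difference was -2.48 (SE 0.43), with a genotype difference of -1.87 on FFC (SE 0.30, edgeR adjusted p = 0.0471) and 0.61 on chow (SE 0.31, edgeR adjusted p = 0.225). Leaving out knockout chow replicate 1 gave -2.71 (edgeR adjusted p = 0.0477). Cyp17a1 passed the test in 3 of the 12 fits with 1 library left out.

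**Figure D1:**
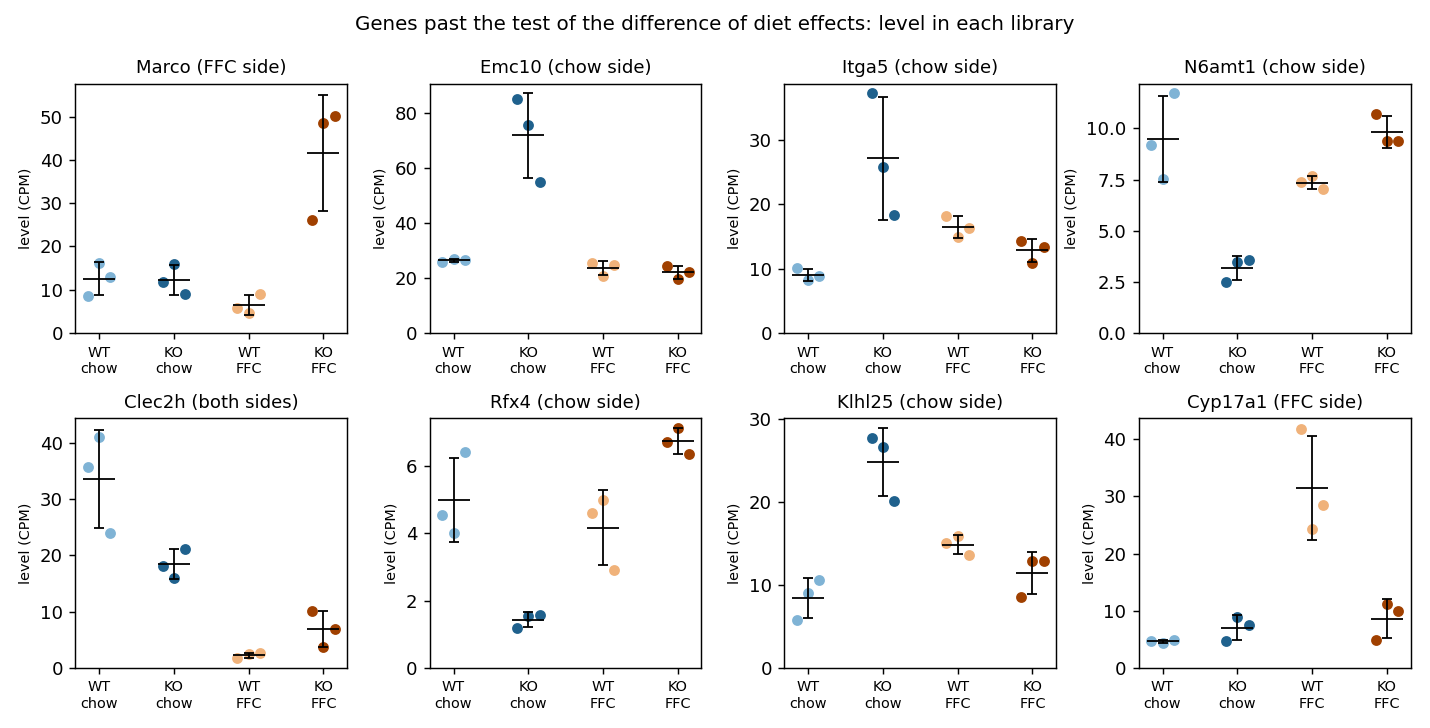
Level in CPM (vertical axis, from 0) of the 8 genes past the test in each library, by genotype and diet, with the mean and SD of the 3 libraries of a group. Marco is high in knockout FFC libraries alone (26.1 to 50.1 CPM) and Cyp17a1 in wild-type FFC libraries alone (24.4 to 41.8 CPM), whereas Emc10, Itga5 and Klhl25 are highest, and N6amt1 and Rfx4 lowest, in knockout chow libraries.

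The chow-side genes with a negative difference were Emc10, Itga5 and Klhl25, and all of them were higher in knockout than in wild-type liver on chow. Emc10 (ENSMUSG00000008140, chr7:44489937-44496529 in mm10) encodes a subunit of the complex that inserts membrane proteins into the endoplasmic reticulum. It was counted at 25.8, 26.7 and 26.5 CPM in wild-type chow and 85.1, 75.5 and 55.0 CPM in knockout chow libraries, and it ran from 19.8 to 25.6 CPM over the 6 FFC libraries. Only the knockout chow libraries were high. The diet effect was -0.16 in wild type (SE 0.18, edgeR adjusted p = 0.587) and -1.71 in knockout liver (SE 0.18, edgeR adjusted p = 2.92e-05), a difference of -1.55 (SE 0.25). The genotype difference was 1.45 on chow (SE 0.18, edgeR adjusted p = 0.00496) and -0.10 on FFC (SE 0.18). Its difference of diet effects without knockout chow replicate 1 was -1.40 (edgeR adjusted p = 0.0477). Emc10 passed the test in 3 of the 12 fits with 1 library left out.

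Itga5 (ENSMUSG00000000555, chr15:103344289-103366763 in mm10), the alpha-5 integrin that pairs with beta-1 to bind fibronectin, stood at 10.1, 8.23 and 8.82 CPM in wild-type chow and 37.2, 25.7 and 18.4 CPM in knockout chow libraries. On FFC it stood at 18.2, 14.9 and 16.3 CPM in wild-type libraries, against 14.3, 10.9 and 13.3 CPM in knockout ones. Every knockout chow library was above every other library, and the wild-type FFC libraries were above the knockout FFC libraries. FFC raised Itga5 by 0.86 in wild type (SE 0.23, edgeR adjusted p = 0.0171), and in knockout liver it fell by 1.08 (SE 0.23, edgeR adjusted p = 0.0029), which gives a difference of -1.94 (SE 0.33). Without knockout chow replicate 1, its highest library, the difference was -1.64 (edgeR adjusted p = 0.0477). Itga5 passed the test in 3 of the 12 fits with 1 library left out.

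Klhl25 (ENSMUSG00000055652, chr7:75848338-75874130 in mm10), an adaptor that brings substrates to the CUL3 ubiquitin ligase, had a similar order of levels. It was at 5.76, 9.02 and 10.5 CPM in wild-type chow, 27.7, 26.6 and 20.1 CPM in knockout chow, 15.1, 15.8 and 13.6 CPM in wild-type FFC and 8.56, 12.9 and 12.9 CPM in knockout FFC libraries. The knockout libraries were above the wild-type libraries on chow and below them on FFC, with no overlap on either diet. The diet effect was 0.82 in wild type (SE 0.24, edgeR adjusted p = 0.0265) and -1.11 in knockout liver (SE 0.24, edgeR adjusted p = 0.00283), a difference of -1.93 (SE 0.34). Leaving out knockout chow replicate 1 gave -1.84 (edgeR adjusted p = 0.0628). Klhl25 passed the test in 2 of the 12 fits with 1 library left out.

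N6amt1 and Rfx4 were the chow-side genes with a positive difference, and both were lower in knockout than in wild-type liver on chow. N6amt1 (ENSMUSG00000044442, chr16:87354185-87368742 in mm10), a methyltransferase that modifies a translation release factor, was at 9.21, 7.54 and 11.7 CPM in wild-type chow and 2.50, 3.47 and 3.55 CPM in knockout chow libraries. On FFC it was at 7.36, 7.67 and 7.04 CPM in wild-type libraries, against 10.7, 9.39 and 9.39 CPM in knockout ones. Only the knockout chow libraries were low. The diet effect was -0.37 in wild type (SE 0.23, edgeR adjusted p = 0.309) and 1.63 in knockout liver (SE 0.25, edgeR adjusted p = 0.000288), a difference of 2.00 (SE 0.34). Rfx4 (ENSMUSG00000020037, chr10:84756062-84906538 in mm10), a transcription factor of the RFX family best known from brain development, was counted at a low level, at 4.56, 4.01 and 6.42 CPM in wild-type chow and 1.18, 1.53 and 1.58 CPM in knockout chow libraries. On FFC it was at 4.61, 5.01 and 2.91 CPM in wild-type libraries, against 6.74, 7.13 and 6.36 CPM in knockout ones. The knockout libraries were the lowest of all on chow and, apart from wild-type chow replicate 4, the highest on FFC. The difference of diet effects was 2.50 for Rfx4 (SE 0.43), from -0.26 in wild type (SE 0.29, edgeR adjusted p = 0.594) and 2.24 in knockout liver (SE 0.32, edgeR adjusted p = 0.000187). Leaving out knockout chow replicate 1 gave 2.37 (edgeR adjusted p = 0.0628) for Rfx4 and 1.86 (edgeR adjusted p = 0.0489) for N6amt1. Of the 12 fits with 1 library left out, N6amt1 passed the test in 3 and Rfx4 in 2.

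Clec2h (ENSMUSG00000030364, chr6:128662385-128677374 in mm10), a C-type lectin-like membrane protein of the family that natural killer cell receptors recognise, drew on both diets. Libraries held 35.8, 41.1 and 24.0 CPM in wild-type chow, 18.2, 16.1 and 21.2 CPM in knockout chow, 1.74, 2.40 and 2.61 CPM in wild-type FFC and 10.1, 3.75 and 6.88 CPM in knockout FFC libraries. It was higher in wild-type libraries on chow and higher in knockout libraries on FFC, with no overlap on either diet. FFC lowered it in both genotypes, and it fell by 3.90 in wild type (SE 0.33, edgeR adjusted p = 2.38e-06) and fell by 1.42 in knockout liver (SE 0.29, edgeR adjusted p = 0.00248). The difference was 2.48 (SE 0.42), and 0.349 of it came from chow, just above the limit of 0.333 that divides both sides from the FFC side. Neither genotype difference passed its own test, with -0.86 on chow (SE 0.29, edgeR adjusted p = 0.0713) and 1.61 on FFC (SE 0.31, edgeR adjusted p = 0.197). The difference of diet effects without knockout chow replicate 1 was 2.47 (edgeR adjusted p = 0.0805). Clec2h passed the test in 3 of the 12 fits with 1 library left out.

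**Figure D2:**
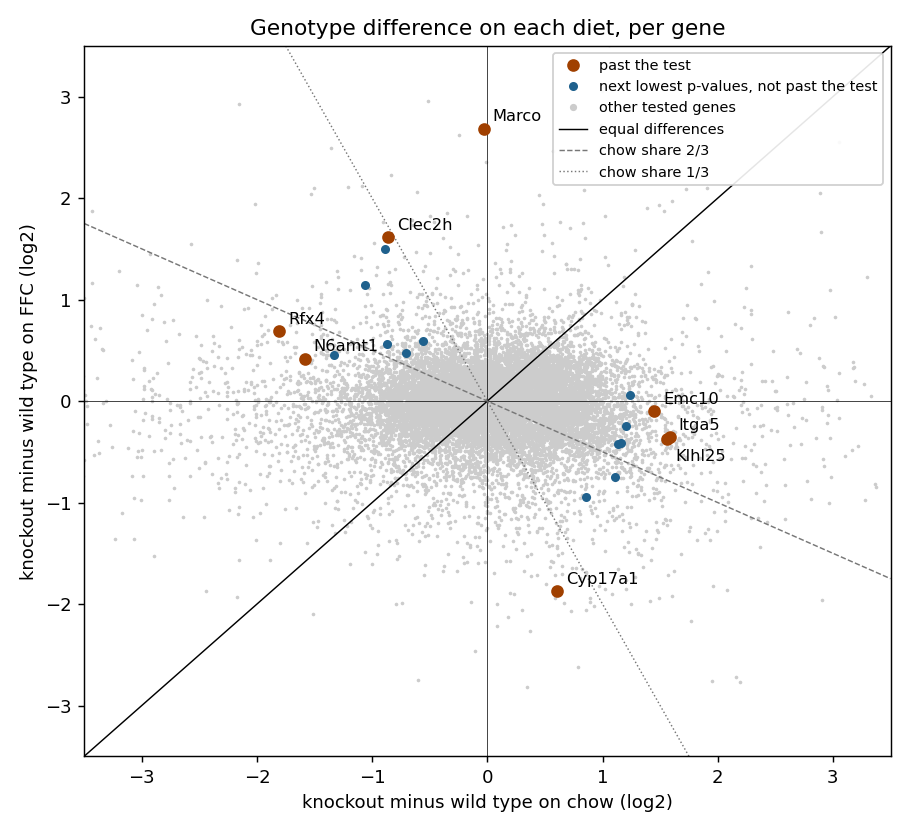
Knockout minus wild-type log2 difference on chow (horizontal) and on FFC (vertical) for each tested gene, with the solid line where both are equal and the difference of diet effects is 0. The dashed and dotted lines mark a chow part of 2/3 and of 1/3. Large points are the 8 genes past the test, small blue points the other 12 genes with the lowest p-values in each direction, and 280 genes lie outside the plotted range of 3.5 either way.

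In the fit of all 12 libraries the contrast drew more on the chow than on the FFC libraries. By the same division 61.8% of the 16283 genes were on the chow side, 16.6% on both sides and 21.6% on the FFC side. Among the 2624 genes with an unadjusted p under 0.05 (16.1% of those tested, 7.84% positive and 8.27% negative), the numbers were 1947, 582 and 95. Among the 89 genes with an edgeR adjusted p under 0.1 (0.547%) they were 64, 21 and 4. The diet effects had opposite signs in 65 of the 89, against 4994 of all 16283 tested genes. Of these 65, 50 had a positive diet effect in wild type and a negative one in knockout liver, and 15 the reverse. Over all tested genes these numbers were 2374 and 2620. Knockout and wild type differed on chow in 1185 genes (7.28%, edgeR adjusted p under 0.05), 653 of them higher (4.01%) and 532 lower (3.27%) in knockout liver. On FFC they differed in 3 genes (0.0184%), which were Marco, Timd4 and Cyp17a1, and 591 genes (3.63%) had an unadjusted p under 0.05. FFC changed 2734 genes in wild-type (16.8%) and 4312 in knockout liver (26.5%). Every contrast used the same estimate of each gene's spread, drawn from all 12 libraries together. Fitted apart, the chow groups had a biological coefficient of variation of 0.363 and the FFC groups 0.174. The part of this shared estimate in the counts of 1185 and 3 was not tested. The excess of genotype calls on chow over those on FFC was not kept under every alternative. With limma-voom and library quality weights, 17 genes differed by genotype on chow and 85 on FFC, though 63% of all genes were on the chow side. With a replicate block, for numbers not known to pair the samples, the chow-side share was 39.8%. Both diet comparisons and both genotype comparisons share libraries with the contrast and with each other.

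These counts rested on single libraries. Without knockout chow replicate 3 the contrast had 580 genes past the test, and without knockout chow replicate 2 it had 94, the 8 genes among them each time. Without knockout chow replicate 1 it had 8, of which Emc10, Itga5, N6amt1 and Cyp17a1 were shared. It had 1 gene without wild-type chow replicate 2, wild-type FFC replicate 4 or knockout FFC replicate 4, and 2 without knockout FFC replicate 1. It had 0 without wild-type chow replicate 3 or 4, wild-type FFC replicate 2 or 3, or knockout FFC replicate 7, where edgeR gave 1914 to 2623 genes an unadjusted p under 0.05. DESeq2 called 415 genes on all 12 libraries and limma-voom 0 (2881 with an unadjusted p under 0.05). The chow genotype count ran from 34 without wild-type chow replicate 2 to 2534 without knockout chow replicate 3, and it was 786 without knockout chow replicate 1. It was 690 and 514 without wild-type chow replicates 3 and 4, 519, 514 and 502 with wild-type FFC replicate 2, 3 or 4 left out, and 724 and 770 without knockout FFC replicates 1 and 7. The FFC genotype count was 1 without wild-type FFC replicate 2, 3 or 4 or knockout FFC replicate 1 or 7, and 5 without knockout FFC replicate 4. The wild-type diet count was 1682 and 1756 without wild-type chow replicates 3 and 4 and 1305, 1564 and 1488 with wild-type FFC replicate 2, 3 or 4 left out. The knockout diet count was 2751 and 2814 without knockout FFC replicates 1 and 4.

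Base composition moved with the chow part of the contrast. Genes rich in G and C tended to be higher in knockout than in wild-type chow libraries, and genes poor in them lower. The 10256 genes whose average level was 2 or more on the log2 CPM scale were cut into 10 classes of equal size by the GC content of their transcripts. The median genotype difference on chow was -0.22 in the lowest class (median GC 41.0%) and 0.61 in the highest (59.1%), and on FFC it was 0.06 and -0.07. The median difference of diet effects was 0.26 in the lowest and -0.66 in the highest class. Across these genes, which are not independent replicates, the rank correlation with GC content was 0.57 for the chow genotype difference, -0.14 for the FFC genotype difference and -0.57 for the contrast.

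Knockout chow replicate 1 had the strongest trend of the 12 libraries. Its mean deviation from each gene's average over the 12 libraries was 0.78 in the highest and -0.39 in the lowest class. Knockout chow replicate 2 had 0.29 and 0.13, replicate 3 had 0.08 and 0.13, and the other 9 libraries lay between -0.37 and 0.05 in the highest class. Wild-type chow replicates 2, 3 and 4 leaned the other way. They had -0.24, -0.16 and -0.10 in the highest and 0.10, 0.32 and 0.01 in the lowest class, and so added to the chow difference. Of the 89 genes with an adjusted p under 0.1, the 63 negative ones had a median GC content of 57.3% and the 26 positive ones 47.0%, against 50.4% over all tested genes. With a correction for GC content and gene length in each library, added after the data had been seen, Itga5, Cyp17a1 and Marco passed the test at -1.55, -2.69 and 3.08 (edgeR adjusted p = 0.0354, 0.0411 and 0.0424). Emc10 was at -0.96 (edgeR adjusted p = 0.0904), and the other 4 kept their direction with adjusted p of 0.0834 to 0.107. The share of a base-composition difference between libraries in the chow side of the contrast beyond this correction was not tested.

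**Figure D3:**
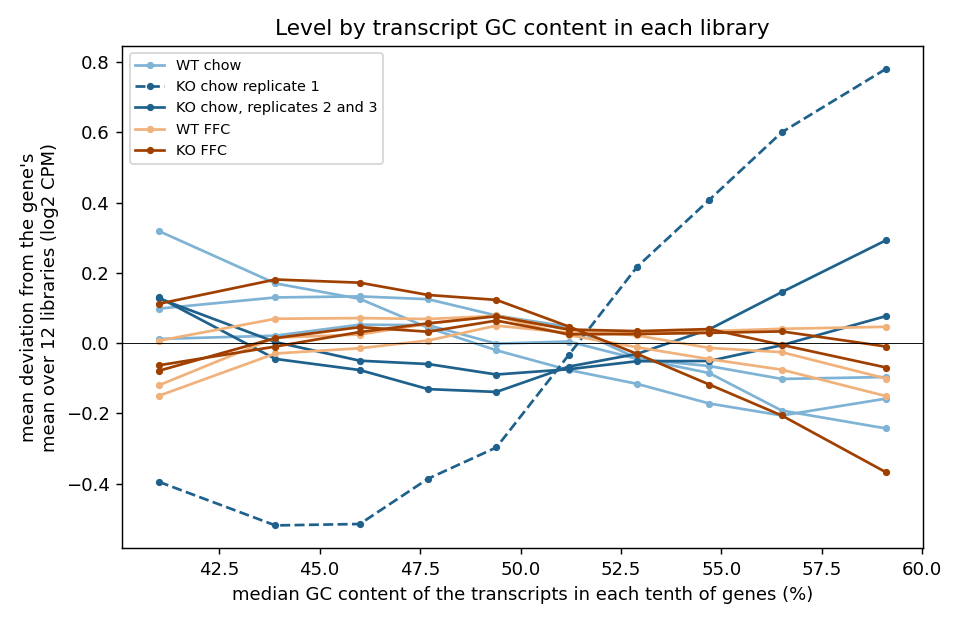
Mean deviation of each library from the gene's mean over the 12 libraries (log2 CPM, vertical) for genes cut into 10 classes by transcript GC content (horizontal, median GC content of the class in percent). The dashed line, knockout chow replicate 1, lies at -0.39 in the lowest and 0.78 in the highest class, and the other 11 libraries lie between -0.37 (knockout FFC replicate 4, highest class) and 0.32 (wild-type chow replicate 3, lowest class).

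The other 12 genes with the lowest p-values in each direction did not pass the test, with edgeR adjusted p of 0.0569 to 0.0839. Closest to the threshold was Hsd3b2, of the 3-beta-hydroxysteroid dehydrogenase family, whose near-identical members may share reads. Its libraries held 121, 204 and 152 CPM in wild-type chow, 70.6, 81.5 and 76.1 CPM in knockout chow, 25.6, 34.3 and 22.7 CPM in wild-type FFC and 37.3, 50.7 and 94.3 CPM in knockout FFC libraries. As with Clec2h, wild-type libraries were higher on chow and knockout libraries higher on FFC, with no overlap. The difference of diet effects was 2.20 (SE 0.39, edgeR adjusted p = 0.0569), with 0.482 of it from chow.

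Among the other positive ones, Acpp, which encodes an acid phosphatase, had the largest value at 2.39 (SE 0.52). It fell with FFC in wild type, from 14.2 ± 1.65 to 2.61 ± 1.18 CPM (SD, n = 3), and stood at 7.71 ± 2.95 and 7.41 ± 3.05 CPM in knockout chow and FFC libraries. Kdm5b, a demethylase of histone H3 lysine 4, had a value of 1.43 and Arhgap29, a GTPase-activating protein, had 1.18. Both went from higher in wild type on chow to higher in knockout on FFC without overlap, at 20.0 ± 5.01, 10.9 ± 1.38, 13.2 ± 0.57 and 19.5 ± 4.40 CPM for Kdm5b in wild-type chow, knockout chow, wild-type FFC and knockout FFC libraries. The alcohol dehydrogenase pseudogene Adh6-ps1 had 1.15. Ccdc125 had 1.79 and overlaps Cdk7, which had a mean count of 450 against 129.6 for Ccdc125 itself.

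The 6 negative ones had values of -1.86 to -1.18. Each was higher in knockout than in wild-type chow libraries without overlap, against 20.6% of all tested genes without overlap on chow. The chow difference is part of the contrast that chose these genes, so their lack of overlap is not further evidence for it. Pcx, the pyruvate carboxylase that feeds gluconeogenesis, was at 354, 369 and 315 CPM in wild-type chow, 969, 755 and 671 CPM in knockout chow, 509, 561 and 616 CPM in wild-type FFC and 597, 360 and 469 CPM in knockout FFC libraries. The genotypes were apart on chow and overlapped on FFC. The difference was -1.45 (SE 0.28, edgeR adjusted p = 0.066), and with the correction for GC content -1.03. Acads, the short-chain acyl-CoA dehydrogenase of fatty acid oxidation, was also apart on chow and overlapping on FFC, at 126 ± 9.91, 297 ± 29.6, 101 ± 9.55 and 105 ± 14.0 CPM in wild-type chow, knockout chow, wild-type FFC and knockout FFC libraries. Its difference was -1.18 (SE 0.23), and -0.67 after the GC correction.

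Grn, which encodes the lysosomal and secreted growth factor progranulin, had a difference of -1.58 (SE 0.30). It was at 113, 110 and 93.1 CPM in wild-type chow and 289, 258 and 161 CPM in knockout chow libraries, and on FFC at 211 ± 17.4 CPM in wild-type libraries, against 158 ± 37.3 CPM in knockout ones (SD, n = 3). Epha2, a receptor tyrosine kinase for ephrins, had -1.80 (SE 0.35) and drew on both diets. It was at 6.32 ± 1.77, 11.4 ± 2.61, 22.4 ± 3.56 and 11.7 ± 2.29 CPM in the same order of groups, with a diet effect of 1.83 in wild type (SE 0.25) and 0.03 in knockout liver (SE 0.24). The splicing-related Scaf1 had -1.56. Fbxo31, a substrate receptor of an SCF ubiquitin ligase, had -1.86 and overlaps another annotated coding gene with a mean count of 663 against 892.8 for Fbxo31, so reads may be shared.

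**Figure D4:**
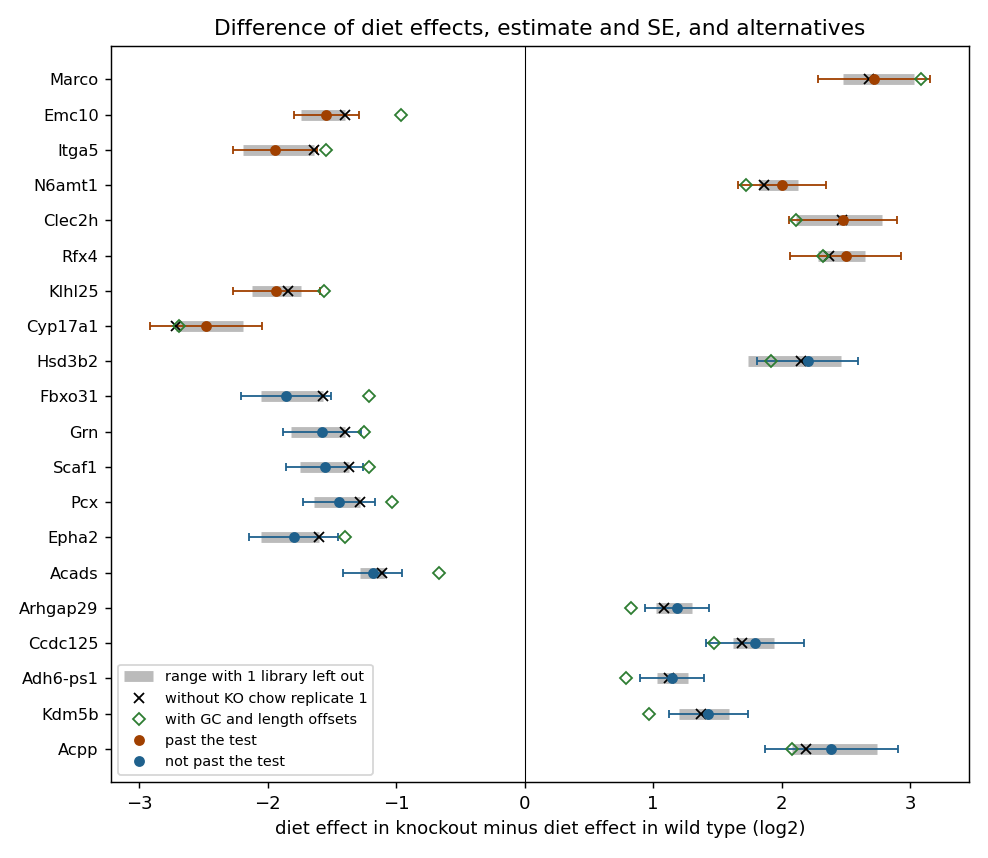
Difference of diet effects (log2, horizontal) with its SE for the 8 genes past the test and the 12 with the next lowest p-values by direction. Grey bars span the values with 1 library left out, crosses are the values without knockout chow replicate 1 and diamonds those with GC and length correction. No bar or marker crosses 0, and most diamonds lie closer to 0 than the estimate.

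Gene lists for liver cell types, metabolism and stress held 640 genes, 589 of them tested. Only Marco and Cyp17a1 passed among them. Over all tested genes the median difference of diet effects was 0.032, with -0.019 on chow and -0.008 on FFC, and 48.2% of genes were below 0. Each list below is given by its median beside these, for some with the medians on each diet. The median takes in members that did not pass. The range given with a median is that with 1 library left out.

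Kupffer cell genes did not share the course of Marco. Of 14 tested, 1 passed and the median difference of diet effects was 0.00 (range -0.12 to 0.10), with 7 members above and 7 below 0. The median knockout minus wild-type difference was 0.31 on chow and 0.34 on FFC, against -0.019 and -0.008 over all tested genes. A median of 0.00 for the contrast thus does not mean that the genotypes were level. Timd4, a phosphatidylserine receptor of resident Kupffer cells, was nearest to it. It was chosen after its values were seen, as were the other Kupffer genes named here and C8b, Hsd3b5, Cyp3a16, Mgll, Col4a1, Eng, Lyve1, Trem2 and Bag3 in later lists. Its libraries held 6.29, 8.02 and 7.27 CPM in wild-type chow, 5.44, 9.63 and 8.69 CPM in knockout chow, 4.13, 5.16 and 3.84 CPM in wild-type FFC and 14.3, 12.8 and 16.2 CPM in knockout FFC libraries. The knockout FFC libraries were above all others. It was higher in knockout than in wild-type liver on FFC by 1.72 (SE 0.25, edgeR adjusted p = 0.0177), but the difference of diet effects was 1.58 (SE 0.35, edgeR adjusted p = 0.0839). C6, a complement component, had 0.91 (edgeR adjusted p = 0.202), and Clec4f, Vsig4, Cd163 and Cd5l had values of -0.24 to 0.33. The 6 Kupffer cell markers (Clec4f, Timd4, Vsig4, Cd5l, Marco and C6) summed to 437 to 656 CPM over the chow libraries. Their sums were 487 to 555 CPM in wild-type FFC and 708 to 857 CPM in knockout FFC libraries. Marco, Timd4 and C6 are part of these sums, C6 alone at 143 to 393 CPM over the 12 libraries, so the sums are not separate from them. The part of Kupffer cell number in the values of Marco and Timd4 was not tested.

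Genes more abundant in male or female mouse liver, which respond to growth hormone, gave the largest opposite medians among lists of at least 10 tested genes. For 13 male-biased genes the median was 0.98, with -0.01 on chow and 0.88 on FFC, and 12 of 13 were above 0 although 0 passed the test. FFC lowered Susd4, a complement regulator, from 58.9 ± 9.99 to 7.03 ± 1.61 CPM in wild-type and from 63.9 ± 15.6 to 16.9 ± 3.71 CPM in knockout liver (SD, n = 3). The difference of diet effects was 1.14 (SE 0.32, edgeR adjusted p = 0.127). Cyp7b1, an oxysterol hydroxylase, had 1.39 (SE 0.42, edgeR adjusted p = 0.152), and C8b, a complement component, had 1.07 (edgeR adjusted p = 0.186). Hsd3b5 had 4.67, with 0.28, 4.66 and 0.15 CPM in wild-type FFC and 2.36, 6.76 and 75.4 CPM in knockout FFC libraries, so 1 library set its mean. For 11 female-biased genes the median was -1.01, with 0.38 on chow and -0.68 on FFC, and 1 passed, which was Cyp17a1. Cyp3a16, of the same list, had -1.89 (edgeR adjusted p = 0.298). Leaving out 1 library gave 0.50 to 1.15 and -1.41 to -0.64, and over all alternatives tried the medians ran from 0.50 to 1.15 for the male-biased and from -1.54 to -0.15 for the female-biased genes. The labels do not give the sex of the mice.

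**Figure D5:**
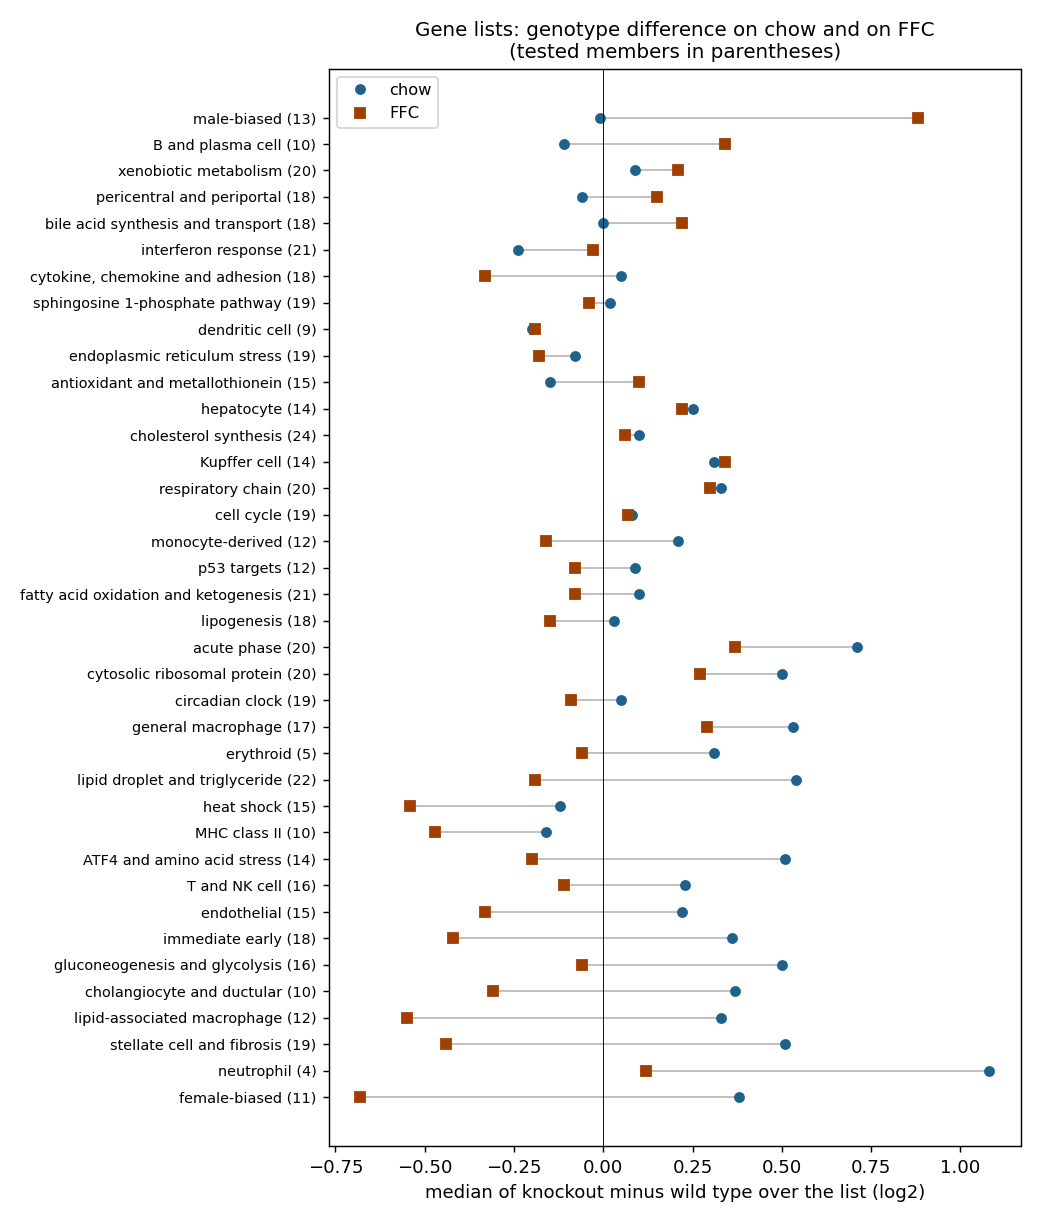
Median knockout minus wild-type log2 difference on chow (circles) and on FFC (squares) over the tested members of each gene list, whose number stands in parentheses, ordered by the median difference of diet effects. Male-biased genes lie at -0.01 on chow and 0.88 on FFC, and female-biased genes at 0.38 and -0.68, at opposite ends among lists of at least 10 genes.

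Genes of lipid droplets mostly lay below 0, without a member past the test. Of 22 lipid droplet and triglyceride genes, 20 were below 0, with a median of -0.40 (range -0.66 to -0.37), 0.54 on chow and -0.19 on FFC. The chow median was 0.28 without knockout chow replicate 1 and 0.31 with the GC correction. Cidec, which fuses lipid droplets, was at 2.45, 1.64 and 2.56 CPM in wild-type chow, 8.08, 2.04 and 5.86 CPM in knockout chow, 122, 113 and 107 CPM in wild-type FFC and 75.6, 58.9 and 60.7 CPM in knockout FFC libraries. The genotypes overlapped on chow and were apart on FFC. Its difference was -2.07 (SE 0.46, edgeR adjusted p = 0.0839), and -1.61 (edgeR adjusted p = 0.132) without knockout chow replicate 1. The monoglyceride lipase Mgll had -1.18 (edgeR adjusted p = 0.11). In the lipogenesis list of 18 the median was -0.15 (range -0.28 to 0.10), and it turned to 0.10 without knockout chow replicate 1 and with the GC correction. Fasn, the fatty acid synthase, had -1.73 (SE 0.39, edgeR adjusted p = 0.0839). Its knockout chow libraries spread from 173 to 481 CPM.

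For 16 genes of gluconeogenesis and glycolysis, of which 0 passed, the median was -0.62 (range -0.84 to -0.42), with 0.50 on chow and -0.06 on FFC. The chow median was 0.36 without knockout chow replicate 1 and 0.24 with the GC correction. Pcx had the lowest p-value among them. In cholesterol synthesis, which FFC represses, the median over 24 genes was 0.00 (range -0.18 to 0.52) and 12 were on each side of 0. Over 18 bile acid genes the median was 0.27 (range 0.10 to 0.34), over 21 fatty acid oxidation genes -0.12 (range -0.22 to -0.01) and over 20 xenobiotic genes 0.35 (range 0.18 to 0.51). With the GC correction the bile acid median was 0.05 and the xenobiotic median 0.04. In the xenobiotic list, Por, the electron donor of cytochromes P450, had -1.63 (edgeR adjusted p = 0.147).

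Markers of stellate cells, endothelium and bile ducts mostly lay below 0, with 0 members past the test. Of 19 stellate cell and fibrosis genes, 17 were below 0, with a median of -0.83 (range -1.19 to -0.65), 0.51 on chow and -0.44 on FFC. Their chow median was 0.27 without knockout chow replicate 1 and 0.35 with the GC correction. Pdgfrb, the platelet-derived growth factor receptor of stellate cells, was at 2.37 ± 0.57, 5.40 ± 1.27, 12.1 ± 2.60 and 7.53 ± 3.84 CPM in wild-type chow, knockout chow, wild-type FFC and knockout FFC libraries (SD, n = 3), a difference of -1.87 (SE 0.47, edgeR adjusted p = 0.11). Col4a1, a basement membrane collagen, had -1.51 (edgeR adjusted p = 0.122). Of 15 endothelial genes 12 were below 0, with a median of -0.54 and a chow part of 0.22. Without knockout chow replicate 1 the endothelial median was -0.32 and its chow part 0.04, and without wild-type FFC replicate 4 or knockout FFC replicate 4 the median was -0.31 or -0.30. Stab1, a scavenger receptor of sinusoidal endothelium that macrophages also express, had -1.83 (SE 0.40, edgeR adjusted p = 0.0839) and -1.39 (edgeR adjusted p = 0.0938) without knockout chow replicate 1, its highest chow library at 69.8 CPM. Eng, a co-receptor of the transforming growth factor beta family, had -1.40 and Lyve1, a hyaluronan receptor, -1.80 (edgeR adjusted p = 0.11 and 0.131). Of 10 cholangiocyte genes 9 were below 0, with a median of -0.67 (range -1.21 to -0.42).

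Lipid-associated macrophage genes, which FFC brings out, had a median of -0.78 over 12 members (0.33 on chow and -0.55 on FFC), 10 of them below 0 and 0 past the test. The median was -0.23 without knockout chow replicate 2 and -1.18 without wild-type chow replicate 3. The lowest p-value was that of Ctsd, a lysosomal protease, at -0.73 (edgeR adjusted p = 0.17). Trem2, a lipid receptor of these cells, was at 0.19, 1.48 and 0.25 CPM in wild-type chow, 0.98, 1.33 and 0.72 CPM in knockout chow, 7.11, 5.74 and 7.34 CPM in wild-type FFC and 4.28 ± 2.11 CPM (SD, n = 3) in knockout FFC libraries. Its difference was -1.34 (edgeR adjusted p = 0.412). Gpnmb, a glycoprotein of the same cells, had 0 counts in all 3 knockout chow libraries and 4, 14 and 4 in wild-type chow libraries. On FFC it was lower in knockout than in wild-type libraries without overlap, at 21.1, 8.51 and 8.07 against 35.6, 23.7 and 33.0 CPM. Against a floor of 3 counts over the knockout chow group, FFC raised its mean level at least 231-fold in knockout liver, and 81.6-fold in wild-type liver. Its fitted difference is therefore not given, and the list's median stays at -0.78 with Gpnmb at that bound. The general macrophage list had a median of -0.26, with 0.53 on chow and 0.29 on FFC. This median was -0.03 without knockout chow replicate 1 and turned to 0.01 with the GC correction. The monocyte-derived list had -0.11 (range -0.76 to 0.83), or -0.58 with its 2 members at 0 in a group put at their bound. Ccr2, the chemokine receptor of monocytes, had 0.50 (SE 0.73, edgeR adjusted p = 0.776).

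No member of a stress list passed the test, and the lists differed in the sign of their median. The endoplasmic reticulum stress list had 0.05 over 19 members (range -0.10 to 0.18), and the antioxidant and metallothionein list 0.03 over 15 (range -0.13 to 0.17). The 18 immediate early genes had a median of -0.62 (range -1.03 to -0.23), which was -0.23 without knockout chow replicate 1, and -0.53 with Egr2, which had 0 counts in a whole group, put at its bound. Their lowest p-value was that of Jund, a subunit of the AP-1 transcription factor, at -1.34 (SE 0.37, edgeR adjusted p = 0.122). The 15 heat shock genes had a median of -0.40 (range -0.55 to -0.23), with -0.12 on chow and -0.54 on FFC. Hspb1, a small heat shock protein, was at 4.94 ± 2.54, 9.53 ± 4.63, 17.8 ± 2.04 and 8.12 ± 0.84 CPM in wild-type chow, knockout chow, wild-type FFC and knockout FFC libraries (SD, n = 3), a difference of -2.09 (SE 0.47, edgeR adjusted p = 0.0842). Its co-chaperone partner Bag3 had -1.50 (edgeR adjusted p = 0.139). The 14 targets of the amino acid stress factor ATF4 had a median of -0.42 (range -0.92 to -0.31), and Sesn2, a sestrin that senses leucine, had -1.71 (SE 0.40, edgeR adjusted p = 0.0886).

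Genes of the sphingosine 1-phosphate pathway itself, its receptors, kinases, transporters and breakdown enzymes, had a median of 0.09 (range -0.15 to 0.10) over 19 tested members, with 0.02 on chow and -0.04 on FFC, and 10 above and 9 below 0. The lowest p-value was that of Ppap2c, a lipid phosphate phosphatase, at -0.72 (edgeR adjusted p = 0.264), and 0 passed. Respiratory chain and cell cycle lists both had a median of -0.06 (range -0.14 to 0.02 and -0.27 to 0.24). The respiratory chain list had 0.33 on chow and 0.30 on FFC. Of the lists immune cells other than macrophages gave, B and plasma cells had 0.59 (range 0.27 to 0.81) over 10 members, led by the immunoglobulin light chain gene Igkc at 1.55 (SE 0.46, edgeR adjusted p = 0.152), and T and natural killer cells -0.45 (range -0.90 to 0.01) over 16, or -0.47 with a member at its bound. Cxcl13, the chemokine that attracts B cells, had 3.48 (SE 0.80, edgeR adjusted p = 0.0851) at a low level. It was at 1.87, 6.75 and 3.01 CPM in wild-type chow, 2.69, 2.70 and 2.70 CPM in knockout chow, 0.14, 0.37 and 1.03 CPM in wild-type FFC and 2.16, 5.61 and 4.18 CPM in knockout FFC libraries. The wild-type FFC libraries were the low ones.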

How the data were processed

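Messenger RNA of 12 liver libraries was read from both ends. TopHat 2.1.0 (alignment to mm10), featureCounts 1.4.6 and edgeR 3.18.1 were the authors' tools, per the series' own design description. The authors deposited raw counts per Ensembl gene. The Ensembl release and strandedness of counting are not given in the sources used here, so overlapping genes may share reads. All 12 count columns were used, and libraries within a group were checked to be distinct. Totals of 18873092 to 31154930 counts set the precision. The table has 0 counts for 17776 genes in every library and for all 37 mitochondrial genes.

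Genes were filtered with filterByExpr (16283 kept) and scaled with TMM factors. A quasi-likelihood model of 4 group means (edgeR 4.0.16, limma 3.58.1, R 4.3.3, robust settings) gave 5 two-sided contrasts, each adjusted by Benjamini-Hochberg over all genes with a threshold of 0.05. The same estimate of each gene's spread, over all 4 groups, served every contrast. SE came from the log2 value and its test statistic. Sides were set by minus the chow genotype difference divided by the contrast. Levels are CPM, and log2 CPM for principal components had a prior of 2 counts. GC content was that of transcripts in the GENCODE annotation of the same build, known for 99.06% of tested genes.

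The members, gene lists and alternatives were chosen with earlier results of these data known. Named genes were the 10 with the lowest p in each direction (average log2 CPM of at least 2, established symbol), since fewer than 10 passed, and the best member of each list described; some list members are not reported here. S1pr1, Lyz2, Ccr2, Cidec, Gpnmb and Alb were always carried through the alternatives. Timd4, C6, Clec4f, Vsig4, Cd163, Cd5l, Hsd3b5, C8b, Cyp3a16, Mgll, Eng, Lyve1, Col4a1, Trem2 and Bag3 were added after their values were seen. Sequences were read from the GRCm38 assembly, which is mm10. Where the table uses an older symbol, as Ppap2c for Plpp2, that one is given. The pipeline was tested on simulated counts. Alternatives were median-ratio factors, no filter, the authors' filter (coding genes that reach RPKM 1 in any library, computed from the counts), non-robust settings, thinning to the smallest total, DESeq2 1.42.0, limma-voom without and with quality weights, a replicate block, other thresholds and each library left out; offsets from spline trends (4 degrees of freedom) on GC content and gene length were added after seeing the data. Same-numbered libraries of different groups deviated with correlations of -0.25 to 0.19 in 10 pairs, 2 of them over 0.1. These values do not show that the numbers pair the samples. They cannot exclude a shared origin of same-numbered libraries, and the main fit used no pairing.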

Additional observations from a re-analysis of the deposited data

Results flagged for a closer look

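The diet effects of the genotypes differed by the test of the difference itself in 8 genes, and their log2 values (knockout minus wild type) were 2.72 for Marco, 2.50 for Rfx4, 2.48 for Clec2h, 2.00 for N6amt1, -1.55 for Emc10, -1.93 for Klhl25, -1.94 for Itga5 and -2.48 for Cyp17a1. Each had an edgeR adjusted p of 0.0467, and over the 24 alternatives tried the largest adjusted p was 0.2. No test for an outlying value was run on single genes within groups of 3 libraries.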

How the results depend on the processing

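The 8 genes past the test kept their direction under all 24 alternatives for single genes, and the side was recomputed for some of these. Of the 8, 5 were on the chow side by DESeq2, by limma-voom, with each library left out and with GC correction, and 4 with GC correction and without knockout chow replicate 1 or with an upper limit of 3/4. How many genes pass varied widely. Against 8 genes, there were 600 with no filter, 419 and 415 by DESeq2 with and without independent filtering, 89 at an adjusted p under 0.1 and 2612 by the unadjusted p (0.05 or less) and a log2 size of 0.5 or more. There were 4 after thinning, 3 with GC and length correction, and 0 with non-robust settings, limma-voom or voom with quality weights, where 2628, 2881 and 2421 genes had an unadjusted p under 0.05. Leaving out 1 library gave 0 to 580 genes for the contrast, 34 to 2534 for genotype on chow (main count 1185), 1 to 5 on FFC (3), 1305 to 3892 for diet in wild type (2734) and 2751 to 4978 in knockout (4312). Genotype on chow gave 2247 genes by DESeq2 and 651 with GC correction, and on FFC 14 by DESeq2. The cause was not tested. Under a replicate block, for numbers not known to pair the samples, the contrast had 396 genes, chow 183 and FFC 14. The lean to chow was lost there: 39.8% of all genes were on the chow side against 61.8%, and of the 396 genes 53 were on the chow side, 75 on the FFC side and 268 on both.

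Among genes not past the test, the contrast changed sign for S1pr1 (-0.14 with the replicate block, -0.15, -0.05 and -0.01 without wild-type chow 4, knockout chow 2 and wild-type FFC 4, -0.21 with GC correction), Ccr2 (-0.22 without knockout FFC 1), Cfd (0.23 without knockout chow 1) and Cela1 (-0.04 with the block). With GC correction and without knockout chow 1 it changed sign for Alb (-0.08), Cfd (0.65) and Ccr2 (-0.00). Of the other values for single genes, 1539 kept their direction and side of the threshold, 179 passed it newly and 112 no longer passed. With 1 library left out, the range was -4.78 to 0.23 for Cfd, -0.22 to 0.99 for Ccr2 and -0.15 to 0.26 for S1pr1. With 3 libraries a group and a wide spread on chow, smaller differences were not detectable at this depth.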
